A study of Arabidopsis thaliana with 4 samples.

Results

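FRUITFULL (FUL) binding sites whose maximum lay inside an intron were taken from the list of sites obtained by chromatin immunoprecipitation and sequencing (ChIP-Seq) of Arabidopsis siliques. A site belonged to them when its maximum was situated between the start and the stop codon of a protein-coding gene and outside every coding exon of every annotated transcript, whatever its score. This rule was met by 197 of the 2831 sites of the list (6.96%, Wilson 95% interval 6.08 to 7.96%), in 190 host genes. The position of the maximum alone chose these sites, and neither their score nor their sequence was used. The list is longer than the set of sites that the study reported as significant under its limit of the false discovery rate. The study's table of targets begins at a score of 5.6, which 53 of the 197 intronic sites and 846 of all sites reached. Most of the 197 are therefore weaker entries of the list.

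The tissue consisted of pistils and siliques of floral stages 12 to 16 from plants labelled as Col/Ler with the genotype pFUL:FUL-GFP ful-1, in which FUL fused to green fluorescent protein was made under the FUL promoter in the ful-1 mutant. Chromatin was precipitated with a GFP antibody in 2 replicates, and 2 input DNA samples of the same plants without an antibody served as reference. All 4 samples thus carried the transgene and the mutation, and a sample without the fusion protein was not analysed here. The list gives 1 score per site, the enrichment over the input with both replicates combined, so that the spread between replicates and the depth of the libraries are unknown, and it holds no expression values with which the labelled tissue could be checked.

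FUL is a MADS domain transcription factor with a role in the growth of the fruit valves and in flowering. MADS domain proteins bind as dimers, mostly within larger complexes, to CArG boxes, and neighbouring factors can be precipitated with them. In plants, regulatory elements occur not only upstream of genes but also inside introns, and a well-known example is the large intron of the MADS-box gene AGAMOUS. Splicing removes introns from the transcript, whereas the DNA of an intron stays accessible to proteins in chromatin.

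The CArG box was searched as 2 C, 6 bases that are each A or T, and 2 G, a pattern that reads the same on both strands. It was found within 100 bp of the maximum in 9 of the 197 intronic sites, of which 5 had a score of at least 5.6. Their sequences are shown because they are the intronic sites that contain the known MADS domain recognition sequence. All sequences are of the RefSeq TAIR10.1 genome, read 5′ to 3′ along the host gene, with the box in capitals. The 4 first sequences lie on chromosome 1 at chr1:3716822-3716962 (+ strand), chr1:6682963-6683103 (− strand) and chr1:27181730-27181759 (+ strand), and on chromosome 2 at chr2:386247-386387 (+ strand), and the last one on chromosome 5 at chr5:26723096-26723236 (+ strand).
AT1G11120: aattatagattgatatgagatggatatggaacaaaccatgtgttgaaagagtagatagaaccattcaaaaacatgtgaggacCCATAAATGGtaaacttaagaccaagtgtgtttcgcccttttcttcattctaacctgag
AT1G19330: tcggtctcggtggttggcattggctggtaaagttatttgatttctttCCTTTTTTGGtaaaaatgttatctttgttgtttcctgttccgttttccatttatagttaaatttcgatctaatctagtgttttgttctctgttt
AT1G72210: tttgtctgggCCAAAAAAGGttttccaaga
EXGT-A3: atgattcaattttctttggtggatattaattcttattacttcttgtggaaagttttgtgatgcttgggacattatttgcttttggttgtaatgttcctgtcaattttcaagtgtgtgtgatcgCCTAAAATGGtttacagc
sks17: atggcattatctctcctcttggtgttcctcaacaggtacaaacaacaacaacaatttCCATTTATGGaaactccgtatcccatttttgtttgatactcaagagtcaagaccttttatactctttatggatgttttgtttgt
The box was centred 16.5 bp downstream of the maximum in AT1G11120 and 57.5 bp downstream in EXGT-A3, and 18.5, 16.5 and 8.5 bp upstream of it in AT1G19330, AT1G72210 and sks17. AT1G72210 is shown with 30 bases because its site lies in an untranslated exon of another transcript of the gene. The scores of these sites were 21.31 in AT1G11120, 19.45 in AT1G19330, 17.65 in AT1G72210, 14.22 in EXGT-A3 and 8.91 in sks17.

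The 4 weaker sites with a box had scores of 5.57 in ROD1, a gene of lipid synthesis, 3.4 in the beta-amylase gene BAM1, 3.4 in the O-methyltransferase gene AT3G53140 and 3.3 in La2, which encodes an RNA recognition motif protein. Their boxes, with the bases beside them, lie at chr3:5351914-5351943, chr3:8642406-8642435 and chr3:19696082-19696111 (+ strand) and at chr1:30047889-30047918 (− strand).
ROD1: aaagattaatCCTAAAATGGtcataaaaga
BAM1: gagattatgaCCAATTTTGGaactgaatga
AT3G53140: ttttcattttCCAAAATTGGagtgatatat
La2: cttaaagtttCCAATAATGGtacttgtgct
The box of AT3G53140 was centred 0.5 bp from the maximum, and that of ROD1 lay 94.5 bp away from it.

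The highest intronic site, in the cytokinin oxidase gene CKX7, had no CArG box. Its sequence is shown beside that of the site in the paralogous gene CKX5 and that of AT1G15800, with each G-box (CACGTG, a recognition sequence of bHLH and bZIP proteins) and each GGNCCC in capitals, the letters that are shared by recognition sequences of TCP factors (GGNCCC or GGGNCC, by strand). The windows lie at chr5:7228999-7229139 (+ strand), chr1:28315866-28316006 (− strand) and chr1:5442158-5442238 (− strand), centred on the maximum.
CKX7: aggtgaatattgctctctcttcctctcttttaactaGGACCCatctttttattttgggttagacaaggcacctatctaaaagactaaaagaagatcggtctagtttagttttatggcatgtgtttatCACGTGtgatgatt
CKX5: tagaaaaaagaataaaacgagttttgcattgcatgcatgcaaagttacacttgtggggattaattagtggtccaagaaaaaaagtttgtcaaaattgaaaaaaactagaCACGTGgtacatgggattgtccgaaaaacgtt
AT1G15800: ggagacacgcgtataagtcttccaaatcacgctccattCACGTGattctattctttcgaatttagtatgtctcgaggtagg
In CKX7 the GGACCC was centred 31.5 bp upstream and the G-box 59.5 bp downstream of the maximum, in CKX5 the G-box was centred 41.5 bp downstream, and in AT1G15800 the G-box lay on the maximum itself (0.5 bp). These matches are descriptions of the letters and not of bound proteins.

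Introns contained a smaller share of the FUL sites than of the sequence. Introns between start and stop codons made up 17.85 Mb (megabases) or 15.0% of the chromosomes, and held 6.96% of the sites, which is 11.0 sites per Mb. Coding exons held 29.8 sites per Mb, the sequence up to 3000 bp upstream of start codons 32.5, the remaining sequence 12.7 and the whole genome 23.8. For sites scoring 5.6 or more the densities were 2.97 per Mb in introns, 6.71 in coding exons, 11.2 upstream and 7.1 in the whole genome. These are descriptions of 1 list, without an error between replicates.

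**Figure D1:**
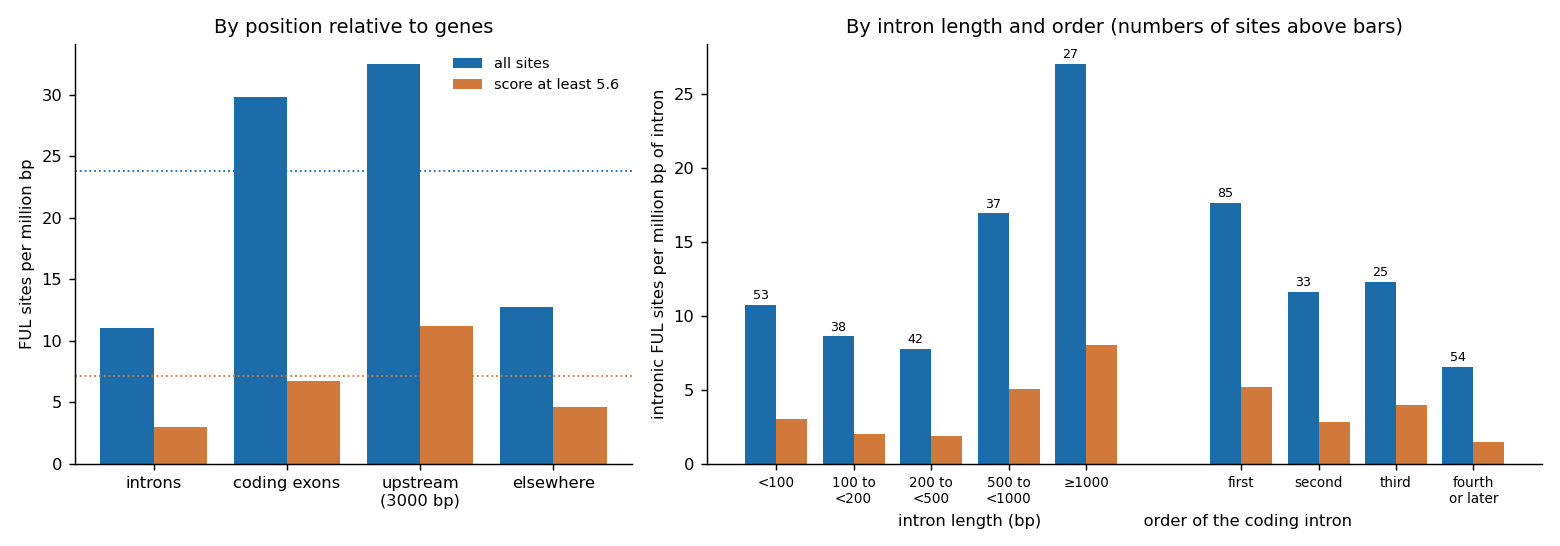
FUL sites per Mb of sequence, for introns, coding exons, sequence up to 3000 bp upstream of start codons and the rest (left, dotted lines give the whole genome), and for introns by length in bp and by order in the coding sequence (right). Blue bars are all sites and orange bars those with a score of at least 5.6; introns of at least 1000 bp reached 27.0 sites per Mb, whereas all introns held 11.0.

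Within introns the sites lay more often in long introns. Introns of at least 1000 bp contained 27 of the 197 sites (13.7%, Wilson 95% interval 9.59 to 19.2%), although they held 5.57% of the intron bases and were 0.578% of the introns. The density was 27.0 sites per Mb in these introns and 16.9 in those of 500 to under 1000 bp, but 7.77 in introns of 200 to under 500 bp, 8.59 in those of 100 to under 200 bp and 10.7 in shorter ones. The introns with a site had a median length of 224 bp and ranged in length between 71 and 3885 bp. The median was 98 bp for the 113801 introns of the longest coding transcripts, and 185 bp when these were weighted by their bases. The weighted value is the nearer yardstick, since a longer intron offers more bases for a site. The 3 longest introns with a site were in AT4G36170 (3885 bp), KNAT6 (3676 bp, score 4.18) and ABCG25 (3388 bp, score 12.59). KNAT6 is a homeobox gene that regulates meristem boundaries, and ABCG25 encodes an exporter of abscisic acid.

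The first coding intron held 85 of the sites (43.1%, Wilson 95% interval 36.4 to 50.1%) and 26.8% of the intron bases. Its density was 17.6 sites per Mb, against 11.6 in the second, 12.3 in the third and 6.53 in later coding introns. The density did not simply fall along the gene. The last coding intron, whatever its number, held 61 sites (31.0%, Wilson 95% interval 24.9 to 37.7%) and 20.4% of the intron bases. This was 16.7 sites per Mb, close to the value of the first. Among introns under 500 bp the density was 16.1 in first and 7.0 in later introns, and among introns of at least 500 bp it was 20.6 in first and 19.5 in later introns, so that the densities differed by order in the short introns and were close to each other in the long ones. In the 180 cases where the host had 2 or more coding introns, 87 sites (48.3%) were in the longest one, which on average comprised 47.6% of the intron bases of the gene. The maxima lay at a median of 1060 bp from the start codon, and 183 of the 197 (92.9%) were within 3000 bp of it. Their median position was at 49.1% of the span from start to stop codon. The share of all intron bases within 3000 bp of the start codon was not computed, so the 92.9% is no measure of closeness to the start.

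Most intronic sites had low scores, as in the list. A score of at least 5.6 was reached by 53 intronic sites in 53 host genes (26.9%, Wilson 95% interval 21.2 to 33.5%), against 793 of the 2634 other sites (30.1%) and 29.9% in the whole list. The difference was −3.2 percentage points with a Newcombe 95% interval of −9.18 to 3.61, which covers counting error only. Against sites in coding exons (22.5%) it was 4.39 points (−1.91 to 11.4), and against sites up to 3000 bp upstream of a start codon (34.4%) it was −7.48 points (−13.8 to −0.411), the only one of these 3 intervals that did not include 0.

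The median score was 4.43 in introns as in the list, and the quartiles were 3.4 and 6.81. Scores over 10 were found at 15 intronic sites and scores over 20 at 4, and the intronic maximum of 50.92 compares with 347.22 among upstream sites and 1071.13 in the list. The score falls in steps, and 55 intronic sites shared the value 3.4. High scores went with wide sites: the median width was 270 bp for the 53 sites scoring 5.6 or more and 77 bp for the others, and the rank correlation of score and width was 0.755 over the 197 intronic sites and 0.786 over all 2831, both derived from the same reads. Widths of up to 50 bp were found for 54 intronic sites (27.4%), against 27.6% of the list.

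**Figure D2:**
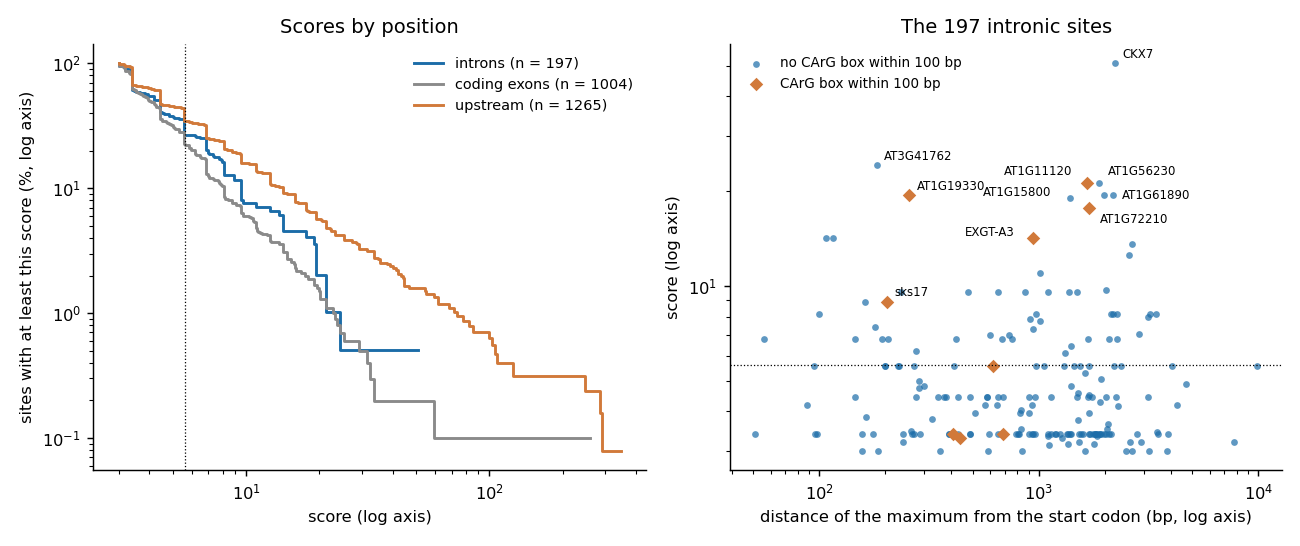
Left, percentage of sites with at least the score on the x axis (both axes logarithmic) for sites in introns, in coding exons and upstream of start codons. Right, score of each of the 197 intronic sites (log axis) by the distance of its maximum from the start codon (bp, log axis), with the 9 sites that have a CArG box within 100 bp as diamonds; the dotted lines mark a score of 5.6, and CKX7 stands highest with 50.92.

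Genes of hormone metabolism and transport were found among the hosts. The annotation text of 12 of the 190 host genes (6.32%) named a hormone, against 3.14% of the 21060 genes with a coding intron, and 4 of the 53 hosts with a score of at least 5.6 (7.55%). This group rests on words and is not complete, as it left out LOX4 (9.55) and LOX3 (6.81) of jasmonate synthesis. Its enrichment was not tested. The cytokinin oxidases degrade cytokinins. The CKX7 site (chr5:7228823-7229327, score 50.92) covered the end of an exon and the start of intron 3 of 3. The CKX5 site (chr1:28315826-28316109, score 8.14) likewise covered the end of an exon and the start of intron 4 of 4. In CKX5, 20.1% of the site was in coding exons, and the maximum lay 117 bp from the 5′ splice site. CKX6 had a site of 35.6 outside its introns, and CKX1, CKX2, CKX3 and CKX4 had no site in the range that reached 3000 bp before the start codon and 1000 bp past the stop codon. CKX5 and PIN7 each had 1 further site outside their introns.

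The PIN genes encode auxin efflux carriers. PIN4 (chr2:180987-181341) had a score of 9.69, PIN7 (chr1:8181404-8181514) of 5.05 and PIN3 (chr1:26745044-26745074) of 3.4, and in each of these genes the maximum lay in intron 3 of 5. Among other family members, EIR1, also known as PIN2, had a site of 3.4 outside its introns, and PIN5, PIN6 and PIN8 had no site in the same range. ABCG25 had its site (chr1:27085367-27085631) near the middle of intron 2, 1487 bp from the 5′ splice site.

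The remaining hosts of the hormone group had lower scores. NAC019, a NAC factor of the abscisic acid and jasmonate response, and AT2G33830, annotated as dormancy and auxin associated, had 5.57 each, and AT2G33830 had a further site of 3.4 in its other intron. The score was 3.4 in GA2OX6, which inactivates gibberellins, in the auxin response factor gene ARF2 and in the invertase gene A/N-InvC, and 4.43 in AT5G65430, a 14-3-3 protein gene whose symbol is GRF8. The group of MADS-box genes, which comprised 75 genes or 0.356% of those with a coding intron, contained no host of an intronic site. Of all genes with a coding intron 0.902% were hosts, and a group of 75 genes is too small to differ visibly from that share.

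Other host groups were likewise described by the words of their annotation. Genes of the cell wall made up 13 hosts (6.84%), against 2.21% of the genes with a coding intron, a group that was added after the hosts had been seen. It included EXGT-A3 (14.22) and XTH28 (11.03), which remodel xyloglucan, the mannan synthase gene ATCSLA09 (8.14), the pectin methylesterase gene AT3G10720 (6.15) and the expansin gene EXPA9 (5.57). Transcription factors made up 16 hosts (8.42%, against 5.82%), with the bHLH gene AT1G72210 (17.65), the bZIP gene EEL (9.55), the homeodomain gene HDG1 (8.14) and the NAC gene ATAF2 (7.39). Transporters made up 15 hosts (7.89%, against 4.86%), including the MATE efflux gene AT1G61890 (19.45) and the calcium pump gene ACA1 (7.05). Kinases, phosphatases and receptors made up 13 hosts (6.84%, against 8.66%), with VSR3 (8.14) and AT1G35710 (7.97) as the highest. RNA-binding proteins made up 4 hosts (2.11%, against 2.05%), among them PABN1 (9.55), and the group of light, clock and flowering genes contained only FPA (3.33; 0.526% of hosts, against 0.902%). These words also catch genes with another main role, such as the chromatin remodeller gene BRM among the transporters.

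Many of the highest sites were in genes outside these groups. After CKX7, the highest score was 24.23 in AT3G41762, which encodes an uncharacterized protein. This site lay 1396 bp from an rRNA gene in a stretch where 6 further sites, up to a score of 347.22, were listed within 3000 bp upstream of the start codon, and its window had the highest GC content of the intronic sites (55.2%). The part of repeated rRNA gene sequence in this score was not tested. AT1G11120, with a CTTNBP 2 amino-terminal-like protein, and AT1G56230, annotated as an enolase with DUF1399, each had 21.31. The AT1G56230 site was 88 bp wide, with its maximum in an intron of 84 bp and 18.2% of its bases in coding exons. The ankyrin repeat gene AT1G62050 and the histone deacetylase complex subunit gene AT1G19330 had 19.45, and AT1G15800 had 18.99.

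Below them were VPS35B, a retromer subunit gene, with 14.22 in intron 1, and AT1G04280 with 13.64 in intron 8 of 8. The AT1G04280 site had its maximum 7 bp from the 3′ splice site, and 76.2% of its bases were in coding exons. A score of 9.55 was shared by AT1G49225, the signal peptide peptidase gene SPPL2, LOX4, EEL, AT4G10080, PABN1 and CYP78A9, a cytochrome P450 gene known for its effect on fruit growth when overexpressed. 

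Most paralogous pairs of host genes, taken at any score, had sites in a corresponding intron. Of the 174 host genes with a paralog found by BLAST, the closest paralog was also a host in 20 cases (11.5%, Wilson 95% interval 7.57 to 17.1%), whereas 0.902% of the genes with a coding intron were hosts. For coding exons the closest paralog was also a host for 89 of 824 genes (10.8%, interval 8.86 to 13.1%), with 3.39% of all genes being hosts. The comparison was chosen after the hosts had been seen, and it is a description. Host genes that are each other's closest paralog were counted from both sides, and the intervals take no account of this. Among all host genes, 14 paralogous pairs (at least 40% identical over 80% or more of both proteins) were found. Where a gene had several sites, any matching combination was enough to count the pair. In 12 of them, comprising 21 genes with 49.4 to 84.5% identity, both genes had a site in the intron at the same place of the protein alignment. That intron held between 15.6 and 83.4% of the intron bases of the gene, with a median of 45.2%.

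The pairs in corresponding introns included XTH28 (11.03) and EXGT-A3 (14.22), both in intron 3 of 3, and AT1G15800 (18.99) and AT1G80610 (7.88), both in intron 1 of 4. The bHLH genes AT1G72210 (17.65) and AT1G22490 (5.57) had sites in intron 2 of 2, at 294 and 242 bp from the 5′ splice site. The mannan synthase genes ATCSLA09 (8.14) and CSLA02 (3.52) had them in intron 3 of 8, and CKX7 (50.92) and CKX5 (8.14) in the last intron. Weaker pairs were AT3G48980 (6.21) and AT5G23850 (4.43), PMR6 (3.4) and AT5G04310 (4.27), which are pectate lyase-like, and the neighbouring genes IMS2 (6.81) and MAM1 (3.4) of glucosinolate synthesis. Both scores reached 5.6 only for XTH28 and EXGT-A3, AT1G15800 and AT1G80610, and CKX7 and CKX5. In every other pair in corresponding introns a site scored under 5.6, where the study's table of targets begins. AAP1 and AAP3, which encode amino acid permeases, and sks4 and sks17 had sites in introns that did not correspond. PMR6 had a further site of 3.4 in intron 3, which did not correspond to that of AT5G04310.

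**Figure D3:**
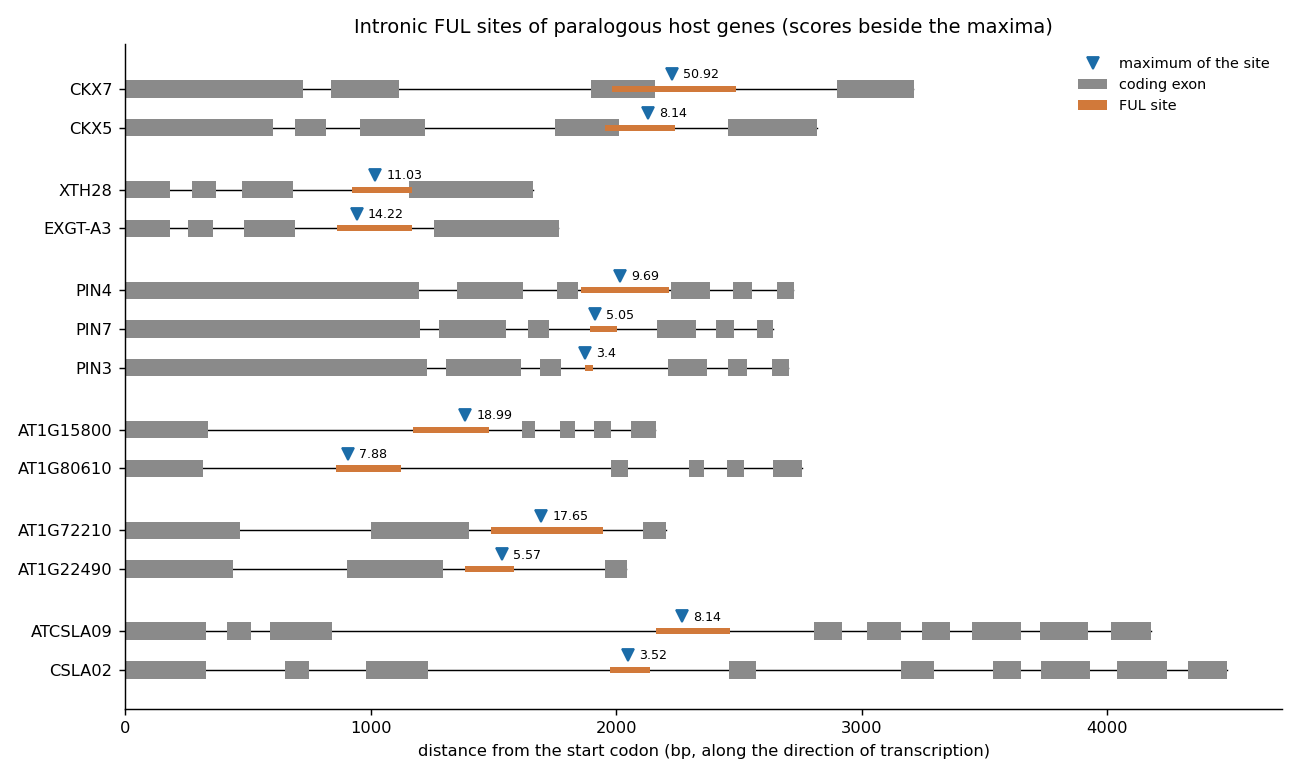
Coding exons (grey boxes), FUL sites (orange bars) and their maxima (triangles, with the score) in 13 paralogous host genes, drawn to scale from the start codon in bp. In each group the maxima lie in the intron at the same place of the coding sequence, as in intron 3 of PIN4 (9.69), PIN7 (5.05) and PIN3 (3.4).

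Shared sequence of the corresponding introns was described only by the longest run of identical bases. The introns were not aligned, and runs shared by unrelated introns were not computed. The longest run of identical bases shared by both introns was 8 to 21 bp over the 12 pairs, and in 1 of them it lay within 100 bp of both maxima. The longest run of the PIN genes was one of 18 bases in intron 3 of PIN7 and PIN3, which is 441 and 436 bp long. The other 4 introns of these genes shared runs of 7 to 10 bases, but they are only 75 to 103 bp long. The PIN7 stretch lies in an untranslated exon of another transcript. The run of 18 bases is shown in capitals, at chr1:8181471-8181500 (− strand) and chr1:26745179-26745208 (+ strand).
PIN7: tacggcATGGACCATCCGACAGGTagggtc
PIN3: ttggggATGGACCATCCGACAGGTggggct
The run was centred 5.5 bp downstream of the PIN7 maximum but 149.5 bp downstream of the PIN3 maximum, outside the PIN3 site, which was 31 bp wide.

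The share of CArG boxes at intronic sites was close to that of the list. The 9 intronic sites with a box (4.57%) compare with 126 of the 2634 other sites (4.78%) and with 4.77% in the list. The difference was −0.215 percentage points (Newcombe 95% interval −2.54 to 3.74). Among sites with a score of at least 5.6 the shares were 5 of 53 in introns (9.43%) and 74 of 793 elsewhere (9.33%), with 9.34% of all such sites. The other sites were not alike in this. Sites in coding exons had a box less often (1.39%), and the interval of the difference of 3.17 points (0.834 to 7.1) did not include 0. For upstream sites the share was 7.59%, with a difference of −3.02 points whose interval included 0 (−5.69 to 1.09). With a score of at least 5.6 it was 2.21% of coding exon sites, a difference of 7.22 points (1.17 to 18.1), and 13.6% of upstream sites, a difference of −4.13 points (−10.5 to 7.07). With 1 mismatch allowed, 31.0% of the intronic sites and 32.1% of the list had a match. So did 25.2% of the 33965 windows of 201 bp laid over introns, in which the exact box had a share of 1.4%. These windows are fewer than the 113801 introns and do not cover every short intron. The window of 137 intronic sites reached a coding exon, so that the sets are not alike.

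A G-box was present at 12 intronic sites (6.09%) and at 13.6% of the other sites (13.1% of the list), a difference of −7.54 points (−10.4 to −3.1). The letters GAGAGA or TCTCTC were present at 20.8% and 25.7% (25.4% of the list), a difference of −4.89 points (−10.3 to 1.52), and GGNCCC or GGGNCC at 12.2% and 15.0% (14.8% of the list), a difference of −2.85 points (−6.96 to 2.61). These differences depended on the place of the sites compared. For the G-box, the difference of intronic sites from upstream sites (19.6%) was −13.5 points (−17.0 to −8.77), whereas that from coding exon sites (6.08%) was 0.0157 points (−3.04 to 4.47). For GGNCCC the difference was −7.18 points (−11.7 to −1.49) from upstream sites (19.4%) and 3.82 points (−0.473 to 9.34) from coding exon sites (8.37%). For GAGAGA it was −6.46 points (−12.1 to 0.182) from upstream sites (27.3%) and −5.08 points (−10.9 to 1.64) from coding exon sites (25.9%). The windows did not overlap exons equally, since introns are short.

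In 60 of the 197 intronic sites the 201 bp window contained no coding exon base, and at these sites the G-box and GGNCCC were more frequent than at the other intronic sites. The G-box was found at 8 of them (13.3%), against 4 of the 137 intronic sites whose window reached an exon (2.92%), a difference of 10.4 points (Newcombe 95% interval 2.66 to 21.4). GGNCCC was found at 14 (23.3%) against 10 (7.3%), a difference of 16.0 points (5.52 to 28.6). For the CArG box the shares were 6.67% and 3.65%, with a difference of 3.02 points (−3.11 to 12.5), and for GAGAGA 21.7% and 20.4%, with a difference of 1.23 points (−10.1 to 14.6). The sets also differed in score, since 22 of the 60 sites reached 5.6, against 53 of all 197 intronic sites. The part of the score in the motif differences was not tested.

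Compared with all windows laid over introns, the windows free of exons held more of each motif. The differences were 11.9 points for the G-box (5.51 to 22.8, 1.41% of all windows), 20.3 for GGNCCC (11.4 to 32.4, 3.05%), 5.27 for the CArG box (1.22 to 14.5, 1.4%) and 8.58 for GAGAGA (0.0313 to 20.5, 13.1%). The median GC content was 35.3% at these sites and 32.3% in all intron windows, and its part in the differences was not tested. The split by exon was chosen with the data in view.

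**Figure D4:**
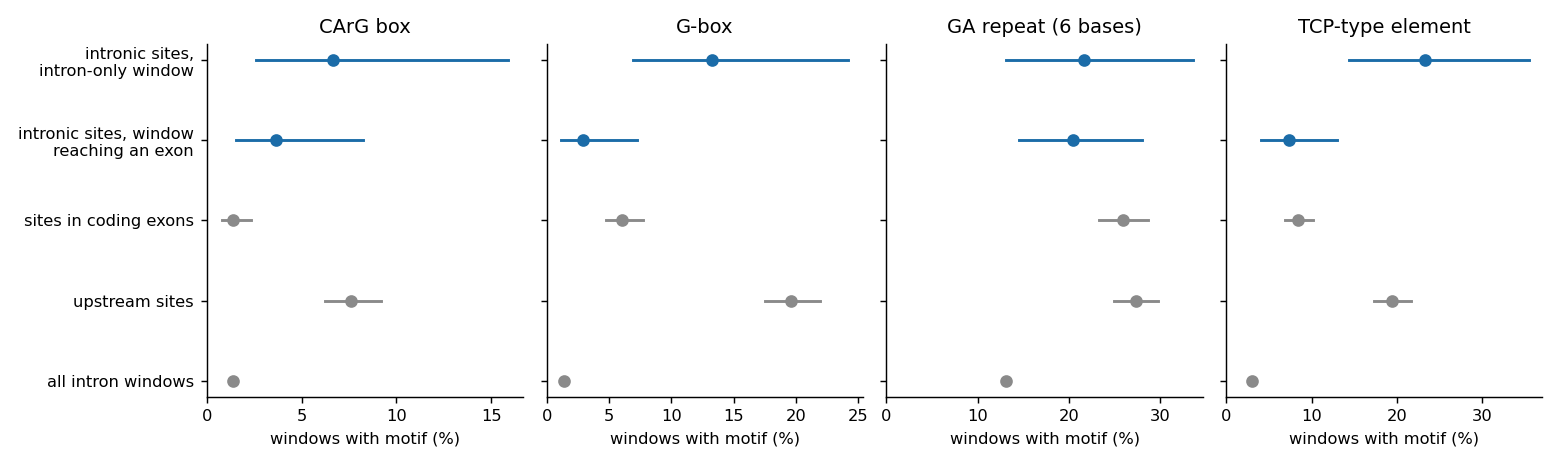
Percentage of 201 bp windows with each motif, with Wilson 95% intervals, for intronic sites whose window holds no coding exon base (n = 60), intronic sites whose window reaches an exon (n = 137), sites in coding exons, sites upstream of start codons and all windows laid over introns. In intron-only windows the G-box (13.3%) and GGNCCC (23.3%) stood above all intron windows (1.41% and 3.05%).

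Among the 53 intronic sites scoring 5.6 or more, a G-box was present at 6, namely CKX7, AT1G15800, EEL, CKX5, ATCSLA09 and RKD5 (11.3%, against 17.6% of all sites with such a score). GGNCCC was present at 10, including CKX7, AT1G11120, AT1G62050, PIN4 and LOX4 (18.9%, against 18.3%). In AT1G62050 it was part of a longer palindrome-like stretch 65.5 bp downstream of the maximum (to the centre of GGGACC), shown at chr1:22936820-22936980 (− strand).
AT1G62050: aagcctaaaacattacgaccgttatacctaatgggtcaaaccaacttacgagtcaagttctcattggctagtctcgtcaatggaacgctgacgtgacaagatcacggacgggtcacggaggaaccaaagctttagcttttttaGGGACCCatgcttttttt
Here GGGACC and GGACCC, the matches on the 2 strands, overlap.

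The boundary of intron and exon passed through many of the sites. No base of the site lay in a coding exon for 100 of the 197 intronic sites (50.8%, against 56.0% of the list), and for 19 of the 53 with a score of at least 5.6. In 45 sites over 50% of the bases were in coding exons, and 102 maxima were within 50 bp of a splice site. For such sites the place of the bound sequence, in the intron or in the exon beside it, cannot be told apart at the width of the sites. Every base of an intron under 100 bp lies within 50 bp of a splice site, and such introns held 27.6% of the intron bases. The share of all intron bases within 50 bp of a splice site was not computed. The 102 maxima therefore cannot tell whether sites lay closer to splice sites than intron sequence does. Of the 9 sites with a CArG box, those of AT1G11120, AT1G72210, EXGT-A3, ROD1, BAM1 and AT3G53140 held no base of a coding exon, although the AT1G72210 site lay in an untranslated exon of another transcript. In the other sites with a box, coding exons took up 46.1% of the bases in AT1G19330, 59.0% in sks17 and 8.3% in La2.

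Other annotation was found at some of the intronic sites. In 17 of them the maximum lay in a non-coding exon of another transcript of the host, as in AT1G72210, PIN4 and PIN7, and 4 were inside a further gene. The EEL site was of this kind, within AT2G41060 and a non-coding RNA gene. Other genes were close by, and 97 maxima (49.2%) were within 3000 bp upstream of the start codon of another gene, as were 44.5% of all intron bases. The smallest such distance was 201 bp, between the PABN1 maximum and the start codon of AT5G51110.

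Sites outside the introns were present in a part of the hosts. A site within 3000 bp upstream of the start codon was found for 19 of the 190 hosts, against 8.35% of all protein-coding genes, and a site in a coding exon for 25 (13.2%), against 3.39%. For 150 hosts (78.9%) the intronic sites were the only ones among these places. EXGT-A3 had an upstream site of 22.04 beside its intronic 14.22, XTH28 one of 10.26 beside 11.03 and ABCG25 one of 7.75 beside 12.59.

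More than 1 intronic site was found in 6 hosts. LOX4 had sites of 9.55 in intron 2 and 3.4 in intron 3, and LOX3 had sites of 6.81 in intron 5 and 4.43 in intron 4. Both genes encode lipoxygenases of jasmonate synthesis, and coding exons and introns together contained 6 sites in LOX3 and 5 in LOX4, the most of all hosts. The sites in LOX3 intron 4 and LOX4 intron 3 were in corresponding introns, but the higher sites, in LOX3 intron 5 and LOX4 intron 2, were not. AT4G10080, an uncharacterized gene, had 9.55 and 3.4 in its only intron of 1129 bp. The other hosts of this kind, AT2G33830, PMR6 and AT4G27720 with its 3 sites, had no score of 5.6 or more.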

How the data were processed

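ChIP-Seq of FUL-GFP was analysed from 1 deposited list made from 2 ChIP and 2 input samples. Reads had been aligned by the authors to TAIR9 using SOAPv2 (unique matches without gaps), plastid and mitochondrial reads left out, and sites called by CSAR relative to the input; the versions are not given in the sources used here. The score in the deposited list is 1 enrichment value per site for both replicates. Site ends and maxima are on TAIR9, and genes and sequences are from RefSeq TAIR10.1; no site exceeded the length of its chromosome there, and CArG boxes were densest within 50 bp of the maxima (32.9 per 100000 bp, against 6.61 at 500 to 1000 bp).

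Introns and exons were taken from all coding transcripts, and the intron order from the longest coding transcript with the maximum in an intron. A score of at least 5.6, where the table of targets in the study begins, marked strong sites. Motifs were searched 100 bp to each side of the maximum. Shares have Wilson and differences Newcombe 95% intervals. These cover counting error only, and sites are not replicates, so no p-values are given. Paralogs were searched with BLAST 2.17.0 (E-value at most 1e-10). The steps were tested on simulated data. Members and gene lists were chosen with earlier results of these data known. Named are the 20 sites with the highest scores and their ties, sites with a CArG box, hosts with several sites, hosts of the MADS-box and hormone lists and the highest examples of other groups, apart from items that are not reported here; paralogs, cell wall genes, the other sites with a box, KNAT6 and AT4G36170 were named after their values were seen. The alternatives concerned the point that places a site, the transcripts, exon overlap, width, score and window. Python 3.11.15, numpy 2.4.6 and pandas 2.3.3 were used.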

Additional observations from a re-analysis of the deposited data

How the results depend on the processing

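No paired analysis was possible because the list holds 1 combined score per site, and values per replicate or without 1 replicate could not be computed. Of 34 alternatives, 24 left the value on the same side and within its interval or range. The number of intronic sites fell to 100 when no base was allowed in a coding exon and to 53 at a score of at least 5.6, both by their construction. The difference in CArG share changed sign with a window of 50 bp (0.516 points), at a score of at least 5.6 (0.102), with the midpoint in place of the maximum (0.32) and against coding exon sites (3.17); only the last interval did not include 0. The difference in the share with a score of at least 5.6 was 4.39 points against coding exon sites, −7.48 against upstream sites and −14.1 (−21.0 to −5.0) among sites with no base in a coding exon, where intronic sites must be narrow enough for the intron. The share in introns of at least 1000 bp was 22.0% among sites without coding exon bases, which favour long introns. The restriction to sites wider than 50 bp, to upstream sites and to sites away from rRNA genes, the restriction to sites without exon bases for the shares in first and in long introns, and the values for paralogs were added after the data had been examined. The closest paralog was also a host for 8.79 to 12.5% of hosts under these. The depth of the libraries is unknown, and no score has an error.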

Other observations

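Chromosome 1 held 24 of the 53 intronic sites with a score of at least 5.6 (45.3%), although it held 26.8% of the intron bases and 27.9% of all sites with such a score. For all intronic sites it was 63 of 197 (32.0%), and for all sites of the list 26.5%. Chromosome 4 was at the other end, with 4 of the 53 (7.55%) and 15.5% of the intron bases. These counts are given as values, and a test over chromosomes was not made.

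A transcript of the host was annotated to start within 1000 bp downstream of the intronic maximum in 7 cases. In PABN1 (9.55), a gene of RNA metabolism, this start lay 80 bp away, in RKD5 (6.81), an RWP-RK factor gene, 239 bp and in EEL (9.55) 540 bp. The sites were chosen by position alone, and whether these transcripts are made in siliques was not analysed here.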
